A study of Arabidopsis thaliana and Ginkgo biloba and Brassica rapa with 14 samples.

Results

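The tRNAs that carry lysine and asparagine were taken as every isodecoder, a tRNA sequence class named by its amino acid and anticodon, whose name starts with Lys( or Asn(, numbered variants included. They were 7 of the 100 consensus sequences in the A. thaliana list, 5 for lysine and 2 for asparagine, and stood for 53 of its 687 gene loci. The lysine group held nuclear (N) Lys(CTT), Lys(CTT)1 and Lys(TTT), mitochondrial (M) Lys(TTT) and chloroplast (C) Lys(TTT). The asparagine group held nuclear Asn(GTT) and a second Asn(GTT), marked C,M,N, whose sequence occurs in all 3 genomes. Cytosine methylation was measured by RNA bisulfite sequencing (RBS-seq), in which unmethylated cytosine is read as thymine, and abundance by RNA-seq, both from RNA cut from a gel at the size of tRNAs. All plants were wild type and untreated. The methylation values came from 3 RBS-seq libraries of A. thaliana seedlings at 10 days, averaged by the authors, and 1 library each of Brassica rapa and Ginkgo biloba, labelled as leaf but given as shoot apex in the methods, Triticum durum flag leaf, Caulerpa taxifolia frond and Nannochloropsis oculata cells. The abundances came from 1 RNA-seq library of A. thaliana seedlings.

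Lysine and asparagine share a codon box whose first and second bases are both A, and the last codon base separates them. Lys(CTT) reads AAG, Lys(TTT) reads AAA and Asn(GTT) reads the pair of codons that end in a pyrimidine, so the anticodons differ only in their first base, position 34. 5-methylcytosine in eukaryotic tRNAs is placed mainly where the variable region meets the T stem, at positions 48 to 50, by enzymes of the TRM4 (NSUN2 in mammals) family. Position 48 is the last base before the T stem and is known to pair with a base of the D loop in the folded tRNA. RBS-seq reports bases that resist conversion, so that other modified cytosines can be read as 5-methylcytosine.

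The 7 consensus sequences are given 5′ to 3′ as DNA because the comparison of lysine with asparagine rests on the bases around position 48. Capitals mark the anticodon and the base at position 48, placed from the T loop.
Lys(CTT), nuclear: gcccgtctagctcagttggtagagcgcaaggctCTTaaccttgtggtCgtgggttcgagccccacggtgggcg
Lys(CTT)1, nuclear: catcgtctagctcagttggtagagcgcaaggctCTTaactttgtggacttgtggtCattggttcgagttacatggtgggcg
Lys(TTT), nuclear: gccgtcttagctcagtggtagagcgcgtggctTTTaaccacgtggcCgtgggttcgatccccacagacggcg
Lys(TTT), mitochondrial: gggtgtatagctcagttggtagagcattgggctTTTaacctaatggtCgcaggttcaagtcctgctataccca
Lys(TTT), chloroplast: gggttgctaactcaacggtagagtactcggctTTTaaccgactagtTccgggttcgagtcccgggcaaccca
Asn(GTT), nuclear: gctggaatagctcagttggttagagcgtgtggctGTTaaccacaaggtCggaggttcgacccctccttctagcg
Asn(GTT), C,M,N: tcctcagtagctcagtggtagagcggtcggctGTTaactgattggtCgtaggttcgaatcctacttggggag

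A cytosine stood at position 48 in 6 of the 7 sequences, 4 of 5 for lysine and 2 of 2 for asparagine. The exception was chloroplast Lys(TTT), which has a thymine at 48 followed by cytosines at 49 and 50. In nuclear Lys(CTT), nuclear and mitochondrial Lys(TTT) and both Asn(GTT) sequences, guanine followed at position 49, and nuclear Lys(TTT) has a second cytosine at 47. All 7 have a thymine before the anticodon, at position 33, and an adenine after it, at position 37. Neither the base at 48 nor the base at 49 thus separated nuclear Lys(CTT) and Lys(TTT) from nuclear Asn(GTT).

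Only lysine tRNAs appeared among the methylated sites. The deposited list holds 59 sites, each at or above 20% methylation, the authors' threshold, in at least 1 species. Of these, 3 were lysine sites, at positions 48 and 68 of nuclear Lys(CTT) and position 48 of nuclear Lys(TTT), and 0 were asparagine sites. Mitochondrial and chloroplast Lys(TTT) and Lys(CTT)1 also had no listed site. Of all 59 listed sites, 51 were on nuclear isodecoders, so few were on organelle sequences of any amino acid.

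A missing asparagine site does not have the same meaning in every species, because a site needs reads to be listed. In the study's detection list, nuclear Asn(GTT) was found by RBS-seq only in C. taxifolia and G. biloba, and Asn(GTT) C,M,N in every species. The missing site of nuclear Asn(GTT) in A. thaliana is therefore not a measurement of an unmethylated C48. The percentages behind unlisted sites were not analysed here.

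Many nuclear tRNAs other than Asn(GTT) share a C48 that is not listed. Of 58 nuclear isodecoders, 47 have a cytosine at 48 and 23 of these, or 48.9%, have a listed site there. With guanine at 49 as well, as in Lys(CTT), Lys(TTT) and Asn(GTT), there were 21 isodecoders and 13, or 61.9%, were listed at 48. The 8 unlisted ones included nuclear Asn(GTT) at 3.76 RPM (reads scaled to a library of 1000000), and 1 of the 8 was more abundant than it, the phenylalanine tRNA Phe(GAA) at 12.31 RPM. Phe(GAA) was chosen for naming after its value was seen.

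Over all listed sites with a value, those at or above 20% made up 83% in A. thaliana, 82.6% in B. rapa, 93.2% in T. durum, 73.1% in C. taxifolia and 87.9% in G. biloba. Pooled over species and so not directly comparable, 7 of the 11 lysine values, from 3 sites, were at or above 20%. Those below 20% were all of position 68. Those at or above it were all 5 values of Lys(CTT) C48, the G. biloba value of position 68 and the single value of Lys(TTT). Since a site enters the list through its highest species, these shares describe a selected list and not all cytosines.

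C48 of Lys(CTT) was highly methylated wherever it was measured. It was at 88% in A. thaliana (the authors' mean), 72% in B. rapa, 91% in T. durum, 87% in C. taxifolia and 88% in G. biloba, and had no value in N. oculata. The median over the 5 species was 88%, the mean 85.2% ± 7.53 (SD, n = 5 species). B. rapa was the lowest, 15 points under C. taxifolia, and the other 4 species lay within 4 points of one another. A monocot (T. durum), a dicot (A. thaliana), a gymnosperm (G. biloba) and a green alga (C. taxifolia) were thus at nearly the same level, with a second dicot, B. rapa, below them.

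Position 68, in the 3′ strand of the acceptor stem, had low values in the same libraries. It was at 13% in A. thaliana, 5% in B. rapa, 11% in T. durum, 0% in C. taxifolia and 25% in G. biloba, with a median of 11%. G. biloba was the only species of the 5 at or above the threshold, so that this site is listed through that species. No other site of the 59 lies at position 68.

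C48 exceeded position 68 in all 5 species and the values of the pair of positions did not overlap. The difference was 75 points in A. thaliana, 67 in B. rapa, 80 in T. durum, 87 in C. taxifolia and 63 in G. biloba, with a mean of 74.4 points ± 9.69 (SD, n = 5 species). An exact two-sided sign-flip test over the species gave p = 0.0625, which is the smallest p that 5 species allow. No set of 5 differences could thus have passed 0.05. Position 68 is listed through G. biloba only, and the A. thaliana consensus has a thymine there. What the A. thaliana difference compares is therefore uncertain. Both positions were chosen with their values known, so the test adds nothing to the differences. The A. thaliana values are deposited as means with the number of libraries behind each not given, the other species had 1 library each, and the spread is that between species, tissues and libraries together.

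**Figure D1:**
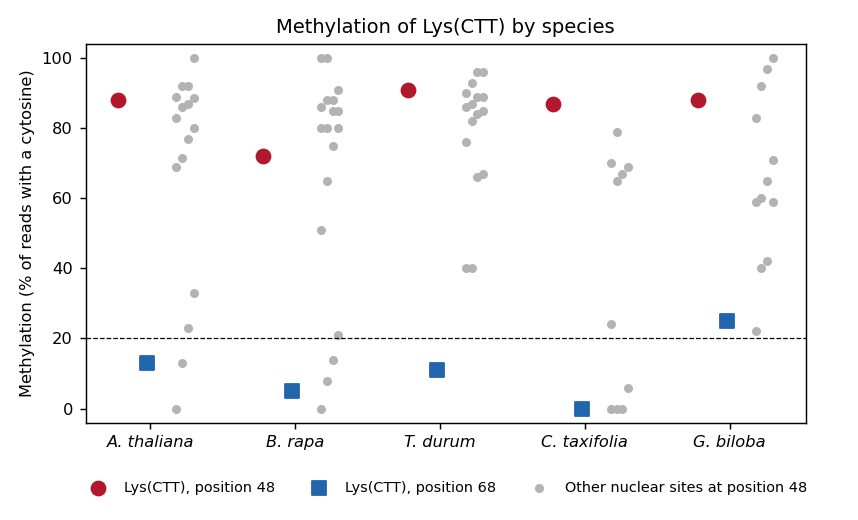
Percent methylation (vertical axis) by species (horizontal axis) for Lys(CTT) at position 48 (red circles) and position 68 (blue squares) and for the other nuclear isodecoders at position 48 (grey points, each a site); the dashed line is the 20% threshold. The red circles lie between 72% and 91% and the blue squares between 0% and 25%.

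The base that was read at position 68 is uncertain. The Lys(CTT) consensus of A. thaliana has a thymine there whether counted from the 3′ end, from the T loop or from the first base. A thymine cannot be a 5-methylcytosine. The base at 68 in the other species was not looked at, and the site is listed through G. biloba. From position 48 to the discriminator base 73, with positions 48 and 68 in capitals, the lysine and asparagine sequences read as follows.
Lys(CTT), nuclear, 48 to 73: CgtgggttcgagccccacggTgggcg
Asn(GTT), nuclear, 48 to 73: CggaggttcgacccctccttCtagcg
In Lys(CTT) the nearest cytosines were 3 positions before 68, at 65, and 4 positions after it, at 72. Position 68 faces position 5, a guanine, in the acceptor stem, and in nuclear Asn(GTT) the base at 68 is a cytosine. Of the 47 nuclear sites listed at position 48 or beyond, 44 fell on a cytosine of the consensus when placed in this way, and Lys(CTT) 68 was 1 of the 3 that did not. Which of the 17 Lys(CTT) genes or which cytosine gave the values was not tested.

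Set against the other nuclear C48 sites of the same species, Lys(CTT) C48 was above their median in 4 of the 5 species and below it in B. rapa. It lay 6.5 points above the median of 16 other nuclear C48 sites in A. thaliana and ranked 6 of 17. In B. rapa it lay 8 points below the median of 18 others, at rank 13 of 19. In T. durum it was 5.5 points above the median of 16 others, at rank 4 of 17.

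The distance was larger in the remaining pair of species, where the median of the other C48 sites was lower. The sites with a value differed between species, so these medians are not over the same sites. Of the sites with a value in both A. thaliana and G. biloba, some were higher in G. biloba and some lower. In C. taxifolia Lys(CTT) was 42.5 points above the median of 10 others, 44.5%, and was the highest of 11, the next site being at 79%. In G. biloba it was 25.5 points above the median of 12 others, 62.5%, at rank 4 of 13. The level of Lys(CTT) itself differed by 1 point between these species, and no test of its rank was made because each species had 1 value.

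C48 of Lys(CTT) varied less between species than most nuclear sites. Its values spanned 19 points, 4 points without B. rapa. Over the 30 sites of other nuclear isodecoders with a number in at least 4 of the same 5 species, the span was 2 to 94 points with a median of 37.5, and 7 of the 30 spanned less than Lys(CTT) C48. Among the 13 of these at position 48, the span was 15 to 92 points with a median of 47, and 1 site, of the threonine tRNA Thr(CGT), spanned less. The 7 sites with a smaller span, Thr(CGT) C48 among them, had values in 4 species each, against 5 for Lys(CTT) C48. Fewer values tend to give a smaller span. Position 68 spanned 25 points. These are descriptions, as sites in 1 library share that library's conversion and depth.

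**Figure D2:**
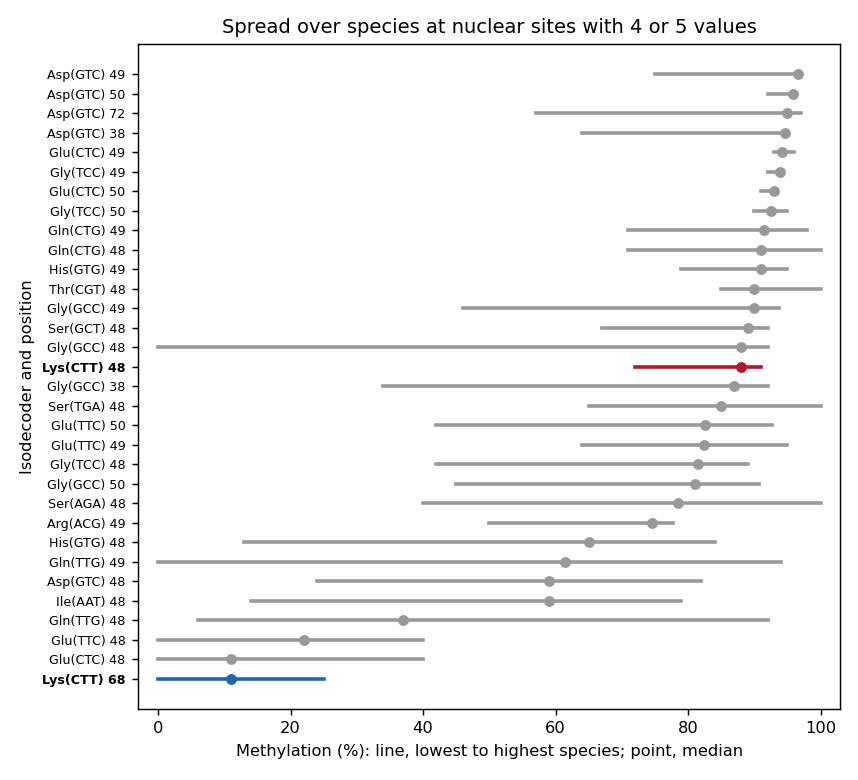
Percent methylation (horizontal axis) of each nuclear site (vertical axis, isodecoder and position) with a value in at least 4 of the 5 species that have one for Lys(CTT); lines run from the lowest to the highest species and points are medians. Lys(CTT) 48 (red) spans 72% to 91% and Lys(CTT) 68 (blue) spans 0% to 25%, with other sites in grey.

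The sites whose levels were most like Lys(CTT) C48 were taken by the median absolute difference over shared species. C38 of the glycine tRNA Gly(GCC), in the anticodon loop, differed by a median of 4 points over 5 species. It was at 92% in A. thaliana, 87% in B. rapa, 91% in T. durum, 34% in C. taxifolia and 86% in G. biloba, so that the likeness did not extend to C. taxifolia. C48 of the serine tRNA Ser(GCT) also differed by a median of 4 points over 5 species, with 89%, 91%, 89%, 67% and 92% in the same order of species. C50 of the glycine tRNA Gly(TCC) differed by a median of 4.5 points over 4 species, having no value in C. taxifolia. In B. rapa, Lys(CTT) C48 at 72% was below all 3, which were at 87% to 91%.

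The second nuclear lysine tRNA, Lys(TTT), had a value at C48 in A. thaliana only. It was at 65.5%, rank 14 of 18 among the nuclear C48 sites of A. thaliana with both lysine tRNAs included. Lys(CTT), at 88%, ranked 6 of 18 and was 22.5 points higher. The A. thaliana column gives the authors' means without a spread, so this difference has no test. Of its 47 values, 31 are whole, 13 have the decimals of a mean of 3 whole percentages and 3, the 65.5% among them, end in 0.5, which a mean of 3 whole percentages cannot give. How many of the 3 libraries stand behind the Lys(TTT) value is thus not known. In the other 5 species Lys(TTT) C48 was given as not determined.

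The sequences of both nuclear lysine tRNAs were close over the region of the site. Lys(CTT) and nuclear Lys(TTT) matched at 61 of 74 aligned positions (82.4%) and shared the stretch from C48 through the whole 5′ strand of the T stem. Lys(CTT) and nuclear Asn(GTT) matched at 53 of 75 (70.7%), and nuclear Lys(TTT) and nuclear Asn(GTT) at 55 of 75 (73.3%). Both Asn(GTT) sequences were no closer to each other, with 53 of 75 (70.7%). Each of these had all 7 acceptor stem pairs, all 5 anticodon stem pairs and all 5 T stem pairs possible, with G paired to T allowed.

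Lys(CTT)1, the numbered variant, departed from this fold. It matched Lys(CTT) at 64 of 81 aligned positions (79%), with 8 gap positions, and had 13 bases between the anticodon stem and the T stem where each of the other 6 has 5. Of its stem pairs, 5 of 7 in the acceptor stem and 3 of 5 in the T stem were possible. Adenine and not guanine follows its C48. It has 1 locus, AT4G22785, at chr4:11974941-11975021 of TAIR10, 20127 bases from the Lys(CTT) gene AT4G22754 at chr4:11954741-11954813, and the RefSeq annotation (assembly TAIR10.1) types it as a pseudogene. It was listed at 0 RPM, where a fixed limit of 3 reads for a count of 0, used in place of a Poisson interval, would be 1.03 RPM.

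The nuclear genes were spread over the chromosomes. Lys(CTT) had 17 loci, with 5, 1, 4, 5 and 2 on chromosomes 1 to 5, Lys(TTT) 13 loci, with 2, 1, 3, 1 and 6, and Asn(GTT) 15 loci, with 5, 4, 1, 2 and 3. RefSeq types all of these 45 as tRNA genes with the coordinates of the list. One pair of lysine genes stood close together, the Lys(TTT) loci AT1G79290 at chr1:29833117-29833188 and AT1G79300 at chr1:29833718-29833789, with 529 bases between them. For Lys(CTT) the gap to the nearest listed tRNA gene of any kind was 2818 bases at the least, with a median of 101336. In nuclear Asn(GTT) the median gap was 73790 bases and the smallest 642, between AT2G36140 at chr2:15168862-15168935 and a leucine tRNA gene. Of the 45 loci, 3 overlapped a protein-coding gene in RefSeq, namely AT1G01890 of Lys(CTT) at chr1:309275-309347, AT5G13845 of Lys(TTT) at chr5:4471048-4471119 and AT2G36140 of Asn(GTT). Exon and intron positions were not used here.

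The organelle loci differed more in form. Chloroplast Lys(TTT) has 1 locus, ATCG00030, which spans 2631 bases of the plastid genome (C:1717-4347) for a tRNA of 72 bases, as the plastid lysine tRNA gene is split by an intron that holds matK. Mitochondrial Lys(TTT) has 2 loci, ATMG00100 (M:28898-28970) and ATMG00700 (M:204340-204412). Asn(GTT) C,M,N has 4 loci, 2 in the chloroplast (C:109013-109084 and C:129565-129636), 1 in the mitochondrion (M:105887-105948, only 62 bases long) and 1 in the nucleus, AT2G07764 at chr2:3496440-3496511. Reads of the C,M,N sequence cannot be assigned to 1 genome.

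In abundance the lysine and asparagine tRNAs were a small part of the A. thaliana library. Together they had 38.29 RPM, or 0.0193% of the 198168 RPM over all 100 isodecoders. The steps of the RPM values are those of a library of 2923785 reads, in which 1 read is 0.34 RPM, so that all 7 rested on 112 reads. The intervals below are exact 95% Poisson intervals on these reads, cover counting error only and say nothing of the spread between plants, since there was 1 library. The 7 sequences are 72 to 81 bases long, so that RPM were compared without a correction for length.

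Among the lysine tRNAs, nuclear Lys(CTT) and chloroplast Lys(TTT) were highest, at 4.1 RPM each (12 reads, 2.12 to 7.17 RPM), sharing rank 47 of 100. Nuclear and mitochondrial Lys(TTT) were at 0.68 RPM each (2 reads, 0.0828 to 2.47 RPM), sharing rank 77 with the leucine tRNA Leu(TAG) and Thr(CGT). The ratio of nuclear Lys(CTT) to nuclear Lys(TTT) was 6, with a counting interval of 1.34 to 55.2, so that its size is poorly fixed. Next above Lys(CTT) in RPM was chloroplast Ile(CAT)2 at 4.45 RPM, and next below it stood nuclear Arg(TCT), Cys(GCA), Ile(AAT)1 and Asn(GTT) at 3.76 RPM. Nuclear Lys(TTT) lay between nuclear Trp(CCA) at 1.03 RPM and isodecoders such as Arg(CCG) at 0.34 RPM.

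Of the asparagine tRNAs, the sequence shared by the genomes was the more abundant. Asn(GTT) C,M,N was at 24.97 RPM (73 reads, 19.6 to 31.4 RPM), rank 30 of 100, between nuclear His(GTG) at 26.34 RPM and chloroplast Ser(XXX)2 at 23.6 RPM. Nuclear Asn(GTT) was at 3.76 RPM (11 reads, 1.88 to 6.73 RPM), rank 49, with nuclear Arg(ACG) at 3.42 RPM next below. The ratio of the C,M,N sequence to the nuclear one was 6.64, with a counting interval of 3.5 to 13.9. Nuclear Lys(CTT) and nuclear Asn(GTT) could not be told apart at this depth, with a ratio of 1.09 and an interval of 0.441 to 2.73.

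**Figure D3:**
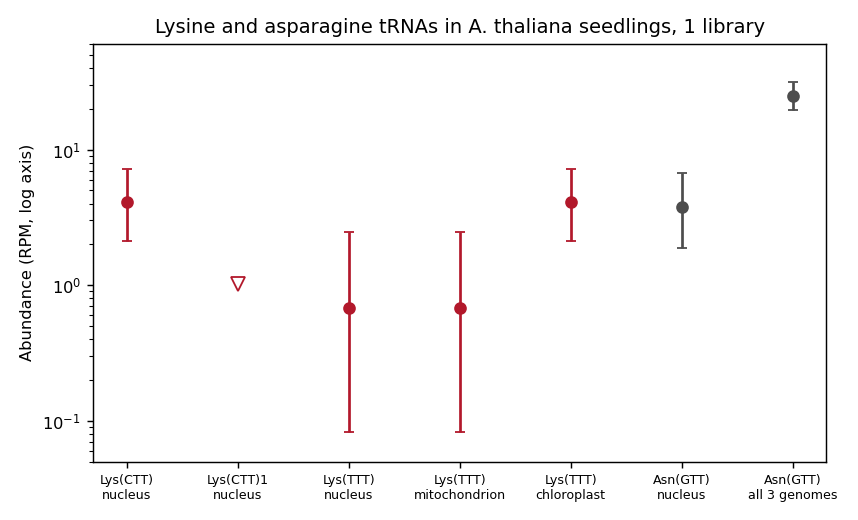
Abundance in RPM (vertical log axis) of the lysine (red) and asparagine (grey) isodecoders in 1 A. thaliana RNA-seq library; bars are exact 95% Poisson intervals and the open triangle is the fixed limit of 3 reads for a count of 0. Asn(GTT) C,M,N stands at 24.97 RPM, above the interval of each of the others, which reach 7.17 RPM at most.

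Within its own origin, Lys(CTT) ranked 15 and Asn(GTT) 16 of 58 nuclear isodecoders, whose median was 2.39 RPM, and Lys(TTT) ranked 38. Chloroplast Lys(TTT) ranked 22 of 24 chloroplast isodecoders, whose median was 77.6 RPM. The same 4.1 RPM was thus above the nuclear median and far below the chloroplast one.

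Per gene locus the nuclear tRNAs were lower than chloroplast Lys(TTT) and Asn(GTT) C,M,N, with genome copies per cell not taken into account. Lys(CTT) had 0.241 RPM per locus, nuclear Asn(GTT) 0.251 and nuclear Lys(TTT) 0.0523. Mitochondrial Lys(TTT) had 0.34 RPM per locus, from 2 reads in all. Chloroplast Lys(TTT) had 4.1 RPM for its single locus and Asn(GTT) C,M,N 6.24 per locus. Total RPM, not RPM per locus, was then set beside the 18 other nuclear isodecoders with 10 to 20 loci. These were at 0 to 626.93 RPM with a median of 3.42, and the range of loci was chosen after the values were seen. Of these 18, 7 were above Lys(CTT), the same number above nuclear Asn(GTT), and 15 above nuclear Lys(TTT).

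**Figure D4:**
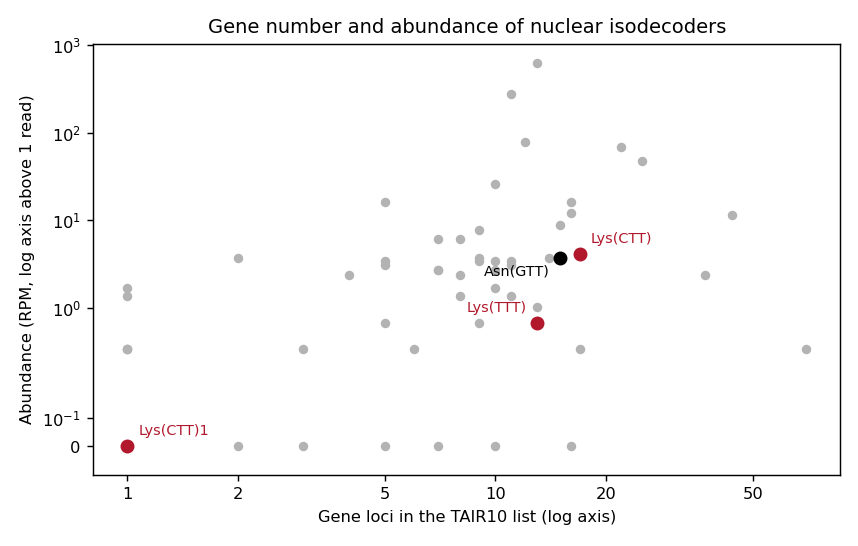
Abundance in RPM (vertical axis, logarithmic above 1 read and linear to 0 below it) against the number of gene loci (horizontal log axis) for the 58 nuclear isodecoders, with lysine in red, asparagine in black and others in grey. Lys(CTT) and Asn(GTT), with 17 and 15 loci, lie at 4.1 and 3.76 RPM, and Lys(TTT), with 13 loci, at 0.68 RPM.

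Listed sites were set beside abundance in the same way. Nuclear Lys(CTT), with 12 reads in the RNA-seq library, had 2 listed sites and nuclear Lys(TTT), with 2 reads, had 1. Chloroplast Lys(TTT) with 12 reads, mitochondrial Lys(TTT) with 2, Lys(CTT)1 with 0, nuclear Asn(GTT) with 11 and Asn(GTT) C,M,N with 73 had none. Of the 37 isodecoders with both a listed site and an RPM value, 22 were less abundant than nuclear Asn(GTT), against 26 of the 63 without a listed site. Below Asn(GTT) C,M,N were 26 of the 37 and 44 of the 63. The RNA-seq library and the RBS-seq libraries are separate, so these reads are not the reads behind the percentages. A site may also be listed through any of the species, while the RPM are of A. thaliana only.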

How the data were processed

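RNA was gel purified by the authors at tRNA size and sequenced with or without bisulfite treatment, and reads were trimmed and aligned in CLC Genomics Workbench, whose version is not given in the sources used here. The deposited abundances are RPM on 100 consensus sequences of TAIR10 tRNA genes. The deposited methylation values are percent, reads with cytosine over reads with cytosine or thymine, from at least 5 reads, with A. thaliana averaged by the authors over its replicates. The depth behind a percentage is unknown.

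Values were computed in Python 3.11.15 with NumPy 2.4.6, SciPy 1.17.1 and Biopython 1.88 and drawn in Matplotlib 3.10.9. Reads were obtained as the total at which every RPM above 0 is a whole number of reads within 0.005 RPM. Positions were counted from the 3′ end and from the T loop. Global alignments scored 1 for a match, -1 for a mismatch, -2 to open a gap and -1 to extend it. Functions were tested on simulated data. All lysine and asparagine isodecoders were named, with their neighbours in RPM and the 3 most like sites. Alternatives were other thresholds, species left out, pseudocounts, a filter under 1 RPM and other position counts. The members and lists were chosen with earlier results of these data known. Locus identifiers were matched to RefSeq (TAIR10.1), 47 of 53 loci being found.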

Additional observations from a re-analysis of the deposited data

Results flagged for a closer look

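The value of 72% at Lys(CTT) C48 in B. rapa stood apart from the other 4 species by Dixon's ratio, the gap to the nearest value over the whole range, which was 0.789 against a 95% critical value of 0.71 for 5 values. For 5 like draws from 1 normal distribution, chance sets about 1 in 20 such groups apart, and 2 groups were looked at. The values here came from different species and tissues, with A. thaliana a mean, so the ratio only describes the gap. At position 68 of the same tRNA the ratio was 0.48, taken at the highest value, 25%. The B. rapa value there, 5%, was not at an end of the range and was not tested. Lys(CTT) C48 was 8 points under the median of the other nuclear C48 sites of B. rapa. The number of reads behind the value is unknown.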

How the results depend on the processing

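None of the 21 alternatives to the 7 results reversed a direction. Several could not have done so. C48 exceeded position 68 by at least 63 points in each species, so leaving out a species could not reverse the difference. A count of values has no direction. The count of lysine values at the threshold was 9 at 10% and 6 at 30% and at 40%, beside 7 at 20%. Leaving out each species in turn gave a median at Lys(CTT) C48 of 87.5% to 88% and a mean difference between C48 and position 68 of 71.25 to 77.25 points, where 4 species cannot give a p below 0.125. The log2 ratio of nuclear Lys(CTT) to Lys(TTT) was 2.59 without a pseudocount, 2.43 with 0.1 RPM and 1.60 with 1 RPM. Nuclear lysine and asparagine tRNAs held 0.00431% of all tRNA RPM, or 0.00397% with isodecoders under 1 RPM left out. Single A. thaliana replicates could not be left out because only their means were used here. Apart from C48 and position 68 within a species, no paired test was run. Only the RBS-seq group of A. thaliana had more than 1 library, so no groups could be paired by replicate. The RPM of nuclear and mitochondrial Lys(TTT) rest on 2 reads each and that of Lys(CTT)1 on 0, and 1 library gives no spread for any RPM.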
